A study of Mus musculus with 16 samples.

Results

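C/EBPβ, the product of Cebpb, is a basic leucine zipper transcription factor that takes part in the differentiation and activation of macrophages. Isoproterenol is a synthetic agonist of β-adrenergic receptors, which couple to adenylyl cyclase, raise cyclic AMP and activate protein kinase A and the transcription factor CREB. Cebpb is itself known as a gene that cyclic AMP signalling can induce. The comparison sets knockdown of the gene against the stimulus: Cebpb siRNA without isoproterenol against isoproterenol without Cebpb siRNA, with the question of what parts the 2 single treatments and which genes come to similar levels under either.

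The 8 libraries compared, chosen by their titles, are part of 16 made from RAW 264.7 cells, a macrophage-like mouse cell line derived from a virus-induced tumour. The first 4 came from cells transfected with Cebpb siRNA and not stimulated. The other 4 came from cells transfected with a control siRNA and then stimulated with isoproterenol. A further 4 libraries of unstimulated cells with the control siRNA give the level that both treatments are set against. All groups were therefore transfected, with siRNA at 25 nM for 24 h before any stimulation. A single siRNA product was used against Cebpb; the labels state neither its sequence nor how much isoproterenol was given or for how long. Each group holds 2 replicates in each of 2 experiments. The submitters call them biological replicates, and no label ties them to separate cultures, so the p-values measure the spread between these libraries.

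RNA was read from the 3′ end of transcripts, and a level is given in RPM, a read count relative to the sequencing depth of its library, scaled for library composition. Values per library are listed as experiment 1 and then experiment 2. Library totals were 9.42 to 25.17 M reads, and the shallowest of the 8 compared was a Cebpb siRNA library, experiment 2 replicate 2, with 9.42 M. Unmapped reads made up 6.96% ± 0.576 of the Cebpb siRNA libraries and 5.39% ± 0.355 of the isoproterenol libraries (SD, n = 4 each), with no overlap (two-sided exact permutation test, p = 0.0286, the smallest p that 4 against 4 allows, and 0.0762 adjusted over 8 measures, the Cebpb level among them). The mitochondrial ribosomal RNA mt-Rnr2 stood at 25009 to 29203 RPM in Cebpb siRNA libraries, 19622 to 21129 RPM in isoproterenol libraries and 17021 to 20345 RPM in unstimulated controls, with the same exact and adjusted p between the treatments. The part of these differences in the results was not tested. Of 20 macrophage identity genes, 18 were tested, and their summed level was 3860 to 3970 RPM in Cebpb siRNA cells, 3800 to 4080 RPM in isoproterenol cells and 3200 to 3560 RPM in unstimulated controls. A listed 0 cannot be read as a missing transcript, since 6 of 13 mitochondrial mRNAs, mt-Co2 and mt-Co3 among them, are listed at 0 in all 16 libraries. All 8 fibroblast, all 6 epithelial and all 5 mast cell and basophil markers were listed at 0 in the 8 libraries, as were 8 of 9 T and NK cell, 5 of 6 B cell, 8 of 9 neutrophil and 5 of 8 dendritic cell markers.

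The targeted gene was checked first. Cebpb (chromosome 2, 167688915 to 167690418, GRCm38) stood at 12.6, 25.1, 22.8 and 35.9 RPM in Cebpb siRNA cells, against 99.5, 73.4, 95.5 and 85.9 RPM in isoproterenol cells, while the unstimulated controls had 73.4, 61.8, 79.3 and 84.0 RPM. Every Cebpb siRNA library lay below every isoproterenol library. The difference was -1.97 ± 0.23 on the log2 scale (SE; 95% interval -2.49 to -1.44; adjusted p = 4.63e-05), with -2.27 in experiment 1 and -1.66 in experiment 2. Isoproterenol itself left Cebpb at a log2 change of 0.25 ± 0.21 from the unstimulated controls, which did not pass the test (adjusted p = 0.753).

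Most genes tested differed between the 2 treatments. Of 10682 genes above the detection floor in at least 4 of the 8 libraries, 6379 differed (59.7%): 3245 were higher after Cebpb siRNA (30.4%) and 3134 were lower (29.3%), by limma with experiment as a term and a Benjamini-Hochberg threshold of 0.05. The sign was the same in both experiments for 6375 of them, and for 4928 genes (46.1%) the 4 libraries of one treatment did not overlap with those of the other. The difference was at least 2-fold for 425 genes that were higher and 657 that were lower. Against the shared unstimulated controls, 6727 genes (63.0%) changed with Cebpb siRNA and 177 (1.66%) changed with isoproterenol, 130 of them raised and 47 lowered. The isoproterenol count was 98 without control experiment 1 replicate 1, 111 to 117 without each of 3 isoproterenol libraries, 44 with no term for experiment and 24 in experiment 2 alone. At an unadjusted p under 0.05, 5.65% of all genes were higher and 5.48% lower after isoproterenol than in unstimulated controls (11.1% in all). The median absolute log2 change was 0.356 for Cebpb siRNA and 0.0852 for isoproterenol. Each experiment alone called 5704 genes (experiment 1) and 3833 genes (experiment 2). Without composition scaling the median difference over all genes is -0.11 in place of 0.02 on the log2 scale, and the split becomes 2318 higher and 3964 lower (36.9% of calls higher, in place of 50.9%).

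**Figure D1:**
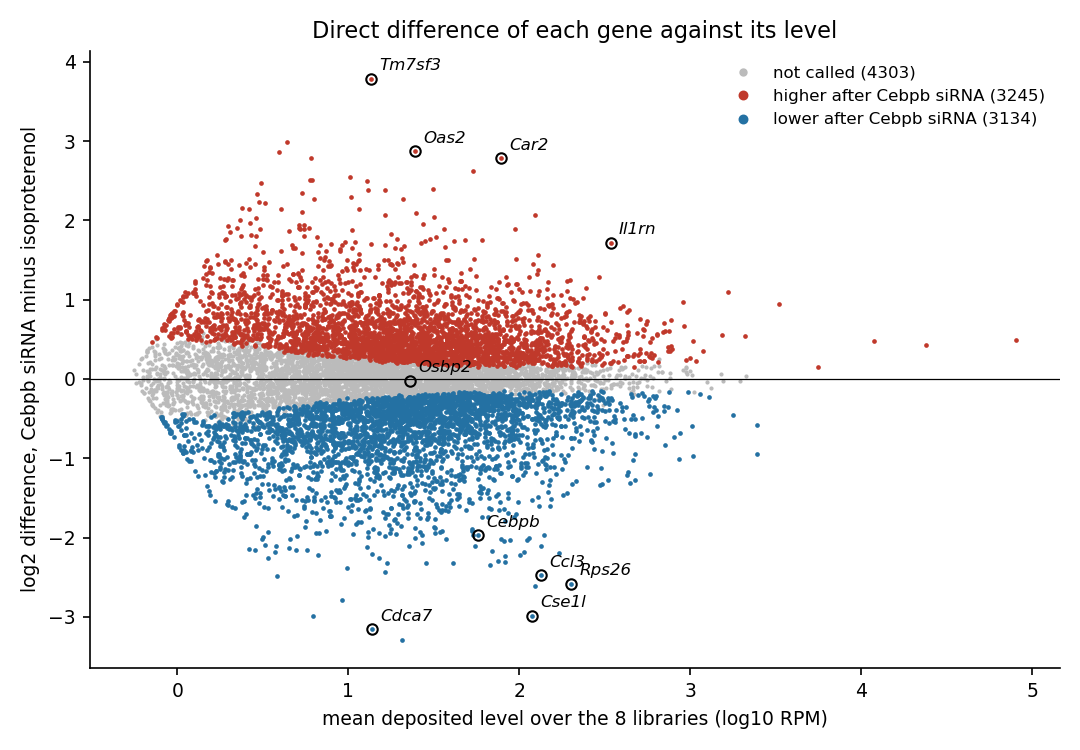
Log2 difference of each of the 10682 genes (Cebpb siRNA minus isoproterenol, y axis) against its mean deposited level in the 8 libraries (x axis, log10 RPM). Red points are the 3245 genes called higher after Cebpb siRNA and blue points the 3134 called lower; circles mark named genes, with Tm7sf3 at 3.79, Cdca7 at -3.15 and Osbp2 at -0.02.

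The genes named as furthest below isoproterenol cells were of mixed function. Several belong to cell division and DNA replication, beside the nuclear transport gene Cse1l and the RNA processing gene Snrpe. Cdca7, a cell division gene regulated by E2F and MYC (chromosome 2, 72476159 to 72486893), stood at 2.96, 2.06, 2.58 and 3.34 RPM in Cebpb siRNA cells, against 29.6, 24.0, 21.2 and 21.8 RPM in isoproterenol cells. It was 8.90-fold lower after Cebpb siRNA (log2 -3.15 ± 0.16, adjusted p = 1.12e-10). Cse1l, the export receptor that returns importin α to the cytoplasm (chromosome 2, 166906040 to 166946389), had 20.1, 29.8, 24.7 and 29.1 RPM against 204, 194, 210 and 205 RPM in isoproterenol cells. That is a difference of -2.99 ± 0.10 (adjusted p = 2.23e-12), and the groups lay far apart with little spread within either. Mcm3, a subunit of the replicative helicase, fell to 27.0, 36.1, 40 and 32.2 RPM in Cebpb siRNA cells, against 198, 215, 208 and 197 RPM in isoproterenol cells (log2 -2.61 ± 0.09, adjusted p = 5.03e-12). Also among the 15 lowest were Trip13, a mitotic checkpoint ATPase (-2.43 ± 0.13), E2f2, an S-phase transcription factor (-2.32 ± 0.09), Timeless, a replication fork protein (-2.25 ± 0.11), and Snrpe, a core spliceosome protein (-2.23 ± 0.07). Rps26, a small ribosomal subunit protein with many near-identical copies in the genome, so that the assignment of its reads is uncertain, was 5.98-fold lower. Of 41 tested cytosolic ribosomal protein genes, Rps26 included, 12 were lower and 6 were higher, against 29.3% and 30.4% of all genes. Their median difference was -0.08.

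All 42 DNA replication genes on the list were tested and all 42 were lower after Cebpb siRNA, against 29.3% of all genes. Their differences were -2.61 to -0.26 on the log2 scale with a median of -1.12. For 40 of the 42 the groups did not overlap, against 46.1% of all genes. All 34 mitosis genes were lower as well, with a median of -1.01. Cdk1, the mitotic cyclin-dependent kinase, had 84.8, 85, 73.8 and 87.6 RPM in Cebpb siRNA cells against 251, 211, 187 and 189 RPM in isoproterenol cells (log2 -1.33 ± 0.08, adjusted p = 5.78e-10). Isoproterenol moved 1 gene of each list past its test, Mcm6 at -0.29 ± 0.07 and Cdk1 at -0.30 ± 0.07 against unstimulated controls, and its median change was -0.14 for the replication list and -0.19 for the mitosis list. At an unadjusted p under 0.05, 10 of the 42 and 20 of the 34 were lower after isoproterenol than in unstimulated controls, against 5.48% of all genes. Over all genes tested the medians were 0.02 for the direct difference and 0.00 for isoproterenol. Among 25 tested regulators of the G1 phase the directions divided, with 12 higher and 9 lower, against 30.4% and 29.3% of all genes. Ccnd2, a D-type cyclin, was higher (1.57 ± 0.06), as were the antiproliferative Btg2 (1.89 ± 0.08) and the MAX partner Mxd4 (2.40 ± 0.15), whereas Cdk6 (-1.44 ± 0.07) and the cyclin E gene Ccne2 (-2.39 ± 0.12) were lower.

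**Figure D2:**
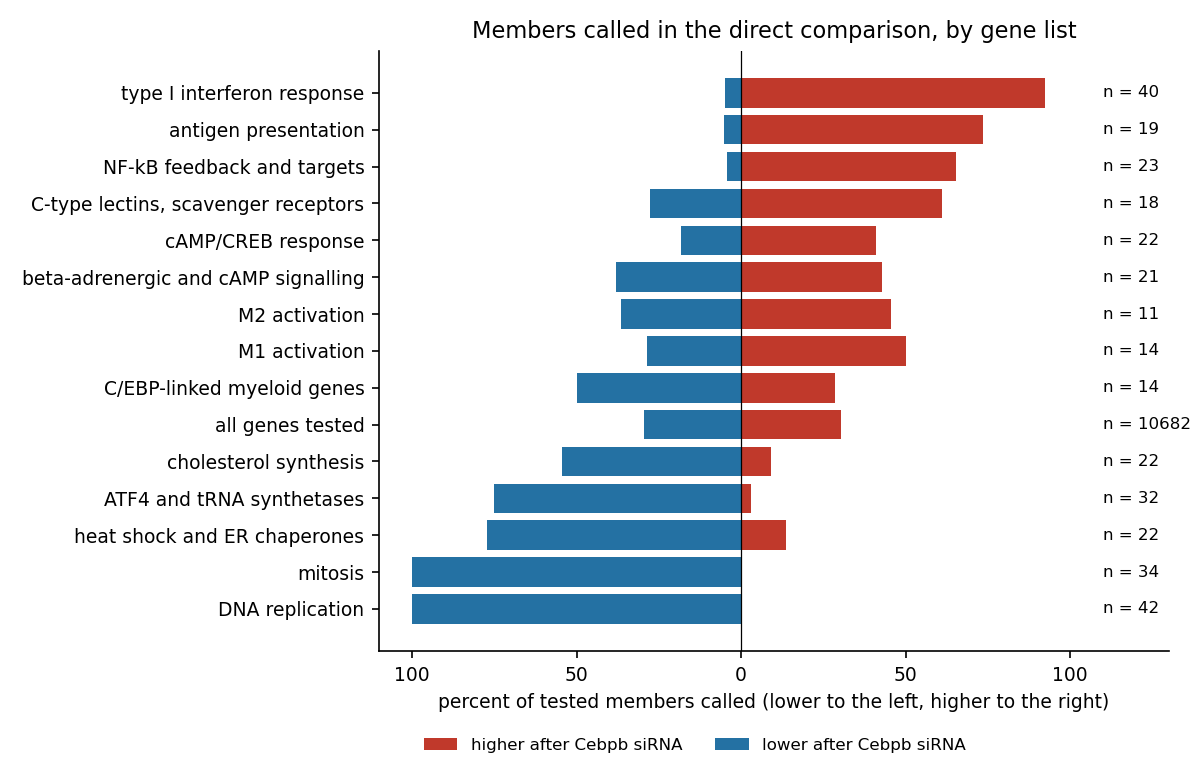
Percent of tested members of selected gene lists called lower (blue, to the left) or higher (red, to the right) after Cebpb siRNA than after isoproterenol, with the number of tested members at the right. Other lists are not shown, among them the ribosomal protein, respiratory chain, NRF2 and G1 lists, whose members divided. Replication and mitosis genes are all on the lower side and 37 of 40 interferon response genes on the higher side; over all genes the shares are 30.4% higher and 29.3% lower.

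The genes furthest above isoproterenol cells were of mixed function, and the 15 named by rank held 3 interferon-induced genes and 3 histone genes. Tm7sf3, a seven-transmembrane protein gene (chromosome 6, 146602352 to 146642824), had 23.7, 25.5, 26.5 and 30.2 RPM in Cebpb siRNA cells, against 2.40, 1.67, 1.78 and 1.87 RPM in isoproterenol cells. At 13.8-fold it was the largest difference among the genes named by rank (log2 3.79 ± 0.14, adjusted p = 5.44e-12). Car2, carbonic anhydrase 2, an enzyme that osteoclasts use to acidify bone, had 105, 119, 160 and 181 RPM against 21.4, 19.1, 21.6 and 18.3 RPM in isoproterenol cells (2.78 ± 0.11, adjusted p = 1.26e-11). Of the other osteoclast genes on the list, Dcstamp, which is needed for the fusion of osteoclast precursors, was higher too (1.06 ± 0.12). Of the 9 tested, 4 were higher and 2 lower (median 0.14), against 30.4% and 29.3% of all genes. The 4 include Mmp9, at -0.07 in experiment 1 and 0.88 in experiment 2. The other 8 of 17 on the list, Acp5 and Ctsk among them, were listed at 0 in all 8 libraries and not tested. Myo6, an unconventional myosin (2.55 ± 0.13), Jup, a junction plaque protein (2.38 ± 0.13), F11r, a tight junction adhesion molecule (2.15 ± 0.12), and Bmp2, a secreted growth factor (2.28 ± 0.12), were also among the 15 named by rank, as was Fam46c (2.49 ± 0.15). The histone transcripts Hist1h2bc, Hist1h4i and Hist3h2a belong to a family of near-identical copies, so their differences of 2.39, 2.29 and 2.09 are uncertain in assignment.

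Interferon response genes stood higher after Cebpb siRNA in 37 of 40 tested, against 30.4% of all genes, with a median difference of 0.98. Oas2, a sensor of double-stranded RNA (chromosome 5, 120730333 to 120749853), had 31.5, 29.7, 51.7 and 66.7 RPM in Cebpb siRNA cells, against 3.33, 3.74, 8.60 and 10.5 RPM in isoproterenol cells and 2.95, 3.68, 9.03 and 11 RPM in unstimulated controls. The levels were higher in experiment 2 than in experiment 1 in all 3 groups, and the distance between the treatments held in both, at 3.12 and 2.63 (log2 2.87 ± 0.12 over both, adjusted p = 2.55e-11). Isg15, a ubiquitin-like modifier, had 26.2, 23.6, 70.1 and 64.7 RPM against 5.34, 6.15, 23.7 and 26.8 RPM in isoproterenol cells (1.77 ± 0.12). Ifi44 and Oasl2 were each 2.07 higher, and Tlr3, the endosomal receptor for double-stranded RNA, was 1.39 higher. The response was not uniform. Irf9, a transcription factor of the interferon response, was lower after Cebpb siRNA (-0.32 ± 0.08, adjusted p = 0.00332), Parp12 was lower (-0.45 ± 0.10, adjusted p = 0.00102), and Rsad2, an antiviral radical-SAM enzyme, showed 0.02 ± 0.14 with an interval of -0.27 to 0.31. Isg15, Irf9, Parp12 and Rsad2 were picked after their values were seen. By limma, isoproterenol changed none of the 40 against unstimulated controls, and 0 of them had an unadjusted p under 0.05, against 11.1% of all genes. A fit with no term for experiment called 18 of the 40, in place of 39. The 4 libraries of one treatment did not overlap with those of the other for 13 of the 40, against 46.1% of all genes. Both groups compared were transfected with siRNA duplexes, and the part of either duplex in these levels was not tested.

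Antigen presentation and NF-κB genes were also mostly higher. Of 19 tested antigen presentation genes, 14 were higher after Cebpb siRNA and 1 was lower (median 0.53). The shares over all genes tested were 30.4% higher and 29.3% lower. B2m, the invariant light chain of MHC class I, had 462, 460, 575 and 748 RPM against 275, 260, 330 and 369 RPM in isoproterenol cells (0.85 ± 0.08, adjusted p = 1.11e-07), and Cd74, the class II invariant chain, was 1.22 ± 0.08 higher. Of 23 NF-κB targets and feedback genes, 15 were higher and 1, Plek, was lower. Against unstimulated controls, isoproterenol raised 3 of the 23 and lowered 0, and over all 10682 genes it raised 130 and lowered 47. At an unadjusted p under 0.05, 6 of the 23 were higher and 0 lower after isoproterenol, against 5.65% and 5.48% of all genes. Traf1, an adaptor of tumour necrosis factor receptors, had 65.3, 62.9, 89.1 and 90.9 RPM against 22.7, 22.2, 23 and 22.3 RPM in isoproterenol cells (1.75 ± 0.09, adjusted p = 1.53e-10). The NF-κB subunits Rel (1.14 ± 0.08) and Relb (1.13 ± 0.11) and the adhesion molecule Icam1 (1.29 ± 0.09) were higher as well.

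**Figure D3:**
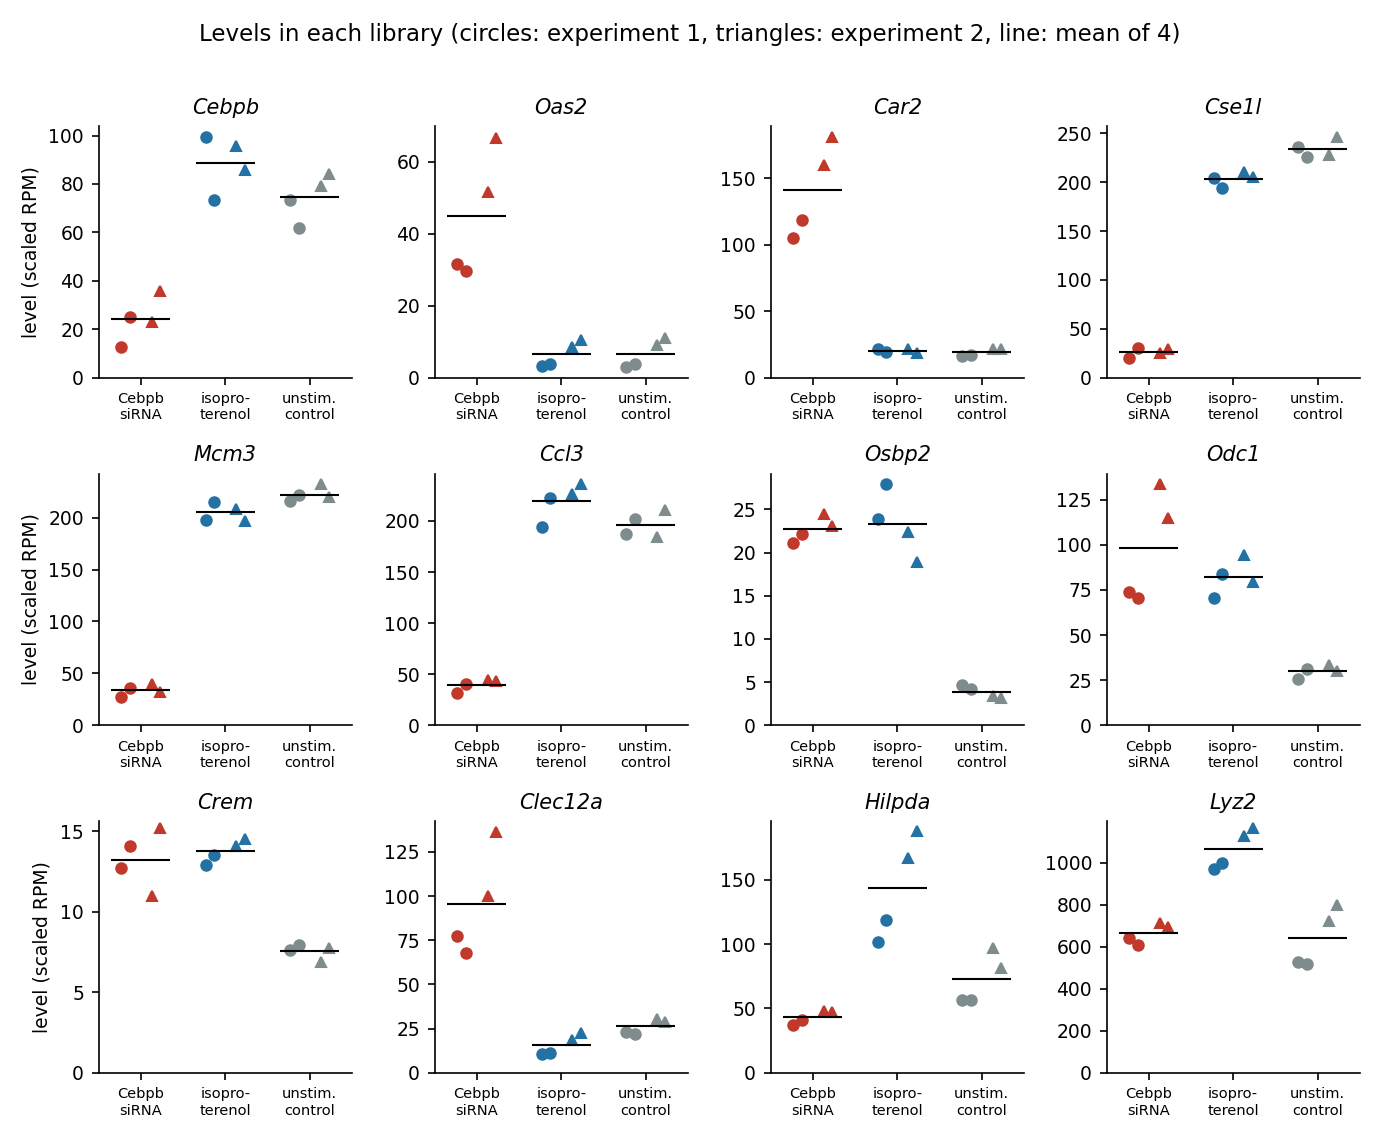
Level of 12 genes in each library (y axis, scaled RPM, from 0), for Cebpb siRNA, isoproterenol and unstimulated control siRNA; circles are experiment 1, triangles experiment 2 and the line is the mean of 4. Cse1l, Mcm3 and Ccl3 are low in the siRNA group only, Osbp2, Odc1 and Crem stand at similar levels in both treatments above the controls, and Clec12a and Hilpda move to opposite sides of the controls.

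A small set of genes reached similar levels by either route. A similar level was taken as a 95% interval of the direct difference within 0.5 on the log2 scale (1.41-fold) for a gene that both treatments moved the same way from the unstimulated controls, which they share. By that definition 50 genes qualified, 40 raised and 10 lowered by both, of 121 that both treatments moved the same way. Over all tested genes the interval lay within the same bounds for 4124 (38.6%), so the margin alone was also met by many genes that neither treatment moved. Of the 50, 14 still differed by the test within those bounds. The groups of 4 overlapped for 35 of the 40 raised genes and 7 of the 10 lowered ones. The median change from unstimulated controls of the 40 raised genes was 0.49 with Cebpb siRNA and 0.40 with isoproterenol. For the 10 lowered genes it was -0.44 and -0.34. The margin of 0.5 is larger than these medians, so for genes with small changes it is a loose bound on a similar level.

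Osbp2, which codes for an oxysterol-binding protein (chromosome 11, 3703731 to 3863903), was among the 40 raised genes. Its level was 21.1, 22.2, 24.5 and 23.1 RPM in Cebpb siRNA cells and 23.9, 27.9, 22.4 and 18.9 RPM in isoproterenol cells, against 4.66, 4.21, 3.43 and 3.18 RPM in unstimulated controls. The treated groups overlapped and both stood clear of the controls. Cebpb siRNA raised it 5.94-fold (adjusted p = 1.59e-14) and isoproterenol raised it 6.02-fold (adjusted p = 8.37e-13), and the direct difference was -0.02 ± 0.11 with an interval of -0.24 to 0.20. Odc1, ornithine decarboxylase, the first enzyme of polyamine synthesis and a known target of cyclic AMP signalling, had 73.8, 70.8, 134 and 115 RPM in Cebpb siRNA cells and 70.8, 83.9, 94.3 and 79.4 RPM in isoproterenol cells, against 25.4, 30.9, 33.5 and 30.3 RPM in unstimulated controls. Its direct difference was 0.22 ± 0.11 (interval -0.02 to 0.45), with -0.09 in experiment 1 and 0.52 in experiment 2, where the groups did not overlap. Crem, the cyclic AMP response element modulator, which feeds back on CREB, had 12.7, 14.1, 11 and 15.2 RPM in Cebpb siRNA cells and 12.9, 13.5, 14.1 and 14.5 RPM in isoproterenol cells, against 7.61, 7.93, 6.86 and 7.78 RPM in unstimulated controls (direct -0.07 ± 0.11).

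Genes of innate recognition and chemotaxis were also in the raised set. Cd14, the lipopolysaccharide co-receptor, had 136, 142, 156 and 219 RPM in Cebpb siRNA cells and 141, 132, 157 and 176 RPM in isoproterenol cells, against 86.2, 82.8, 105 and 110 RPM in unstimulated controls (direct 0.09 ± 0.09). Clec4d, a C-type lectin that binds mycobacterial glycolipid, differed by 0.07 ± 0.06 and Clec4e (mincle), another receptor of that kind, by -0.25 ± 0.06, which passed the test (adjusted p = 0.00137) within the bounds. The chemokine gene Cxcl2 was raised by 0.63 with Cebpb siRNA and by 0.75 with isoproterenol, the extracellular matrix gene Tgfbi by 0.55 and 0.58, the immediate early gene Ier3 by 0.54 and 0.68, the protocadherin Pcdh7 by 1.46 and 1.19 and the arginine methyltransferase gene Prmt2 by 0.88 and 0.71. Fosl2, an AP-1 subunit, Slc2a1, the glucose transporter GLUT1, Dab2, an endocytic adaptor, and Adam8, a cell surface protease, also qualified and, like Clec4e and Clec7a, were picked after their values were seen. Their direct differences were -0.18, 0.01, 0.02 and -0.00.

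The lowered set was smaller in number and in size of change. Pik3cd, the leukocyte PI3-kinase catalytic subunit, had 113, 116, 116 and 101 RPM in Cebpb siRNA cells and 118, 123, 106 and 101 RPM in isoproterenol cells, against 145, 134, 128 and 126 RPM in unstimulated controls (direct -0.01 ± 0.07). The treated groups overlapped and both lay below the controls. Pik3cd changed by -0.26 with Cebpb siRNA and -0.25 with isoproterenol, and Nes, an intermediate filament gene, by -0.22 and -0.32. The RNA-binding protein genes Khsrp and Hnrnpl, the mitochondrial distribution gene Cluh, the histone demethylase gene Kdm3b and the membrane protein gene Ptchd1 also met the rule for naming. Of these, Ptchd1 (0.27), Hnrnpl (-0.28) and Cluh (-0.32) still differed by the test. Clec7a, the β-glucan receptor dectin-1, changed by -0.54 with Cebpb siRNA and by -0.73 with isoproterenol, against levels between 11.3 and 13.9 RPM in unstimulated controls.

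The size of this set depended on single libraries. Leaving out 1 library at a time gave 26 to 68 genes. It gave 26 without unstimulated control experiment 1 replicate 1, 29 without isoproterenol experiment 2 replicate 1, and 30 without each of isoproterenol experiment 1 replicate 2, isoproterenol experiment 2 replicate 2 and control experiment 2 replicate 2. A margin of 0.32 left 27 genes and a margin of 1 gave 92.

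**Figure D4:**
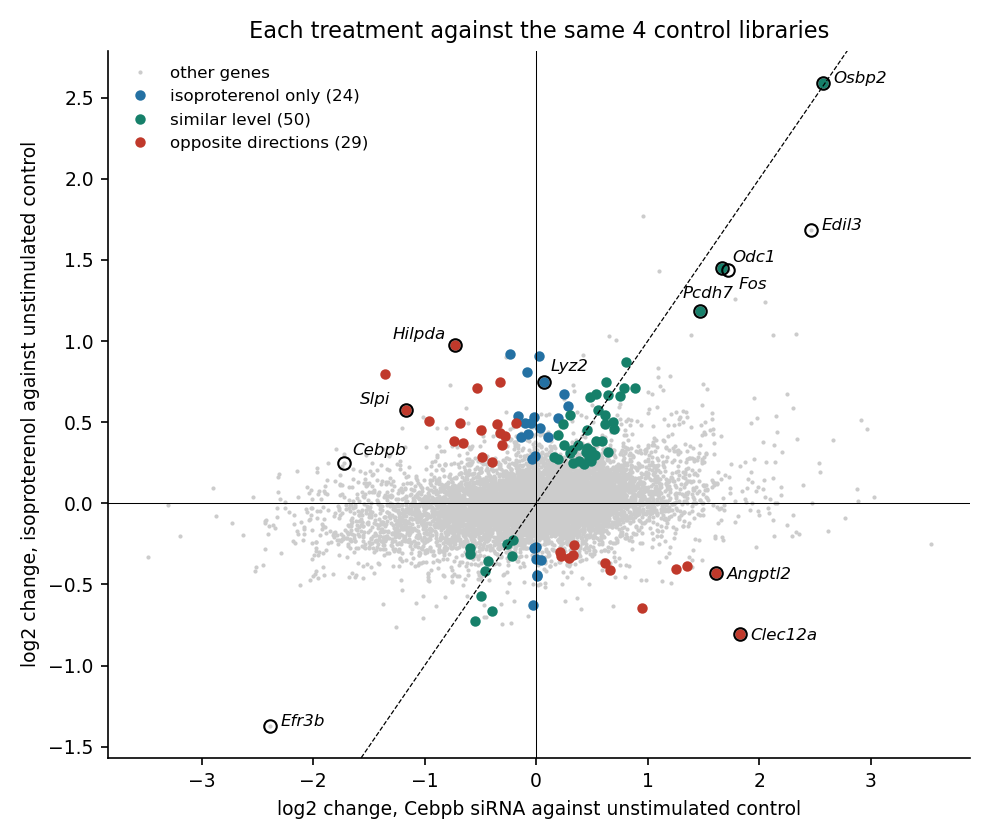
Log2 change of each gene with Cebpb siRNA (x axis) and with isoproterenol (y axis), both against the same 4 unstimulated control libraries; the dashed line marks equal change. Green points are the 50 genes at a similar level and red points the 29 moved in opposite directions. Blue points are the 24 that passed the test with isoproterenol, did not pass it with Cebpb siRNA and differed between the treatments.

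Among the other 71 genes moved the same way, Cebpb siRNA cells stood further from the controls for 60 (46 raised, 14 lowered), isoproterenol cells for 7, and 4 fell in neither class. These genes have no place in the rule for naming and were picked for their size of change. Edil3, an integrin-binding matrix protein, had 24.9, 24.7, 22.6 and 24.7 RPM in Cebpb siRNA cells and 14.1, 15.9, 14.1 and 12.6 RPM in isoproterenol cells, against 3.47, 5.36, 5.02 and 4.0 RPM in unstimulated controls. The treatments did not overlap (direct 0.78 ± 0.09, adjusted p = 1.54e-06). Fos, an immediate early AP-1 gene and a CREB target, was raised by 1.72 with Cebpb siRNA and 1.44 with isoproterenol, with a direct difference of 0.28 ± 0.11 (adjusted p = 0.0329) that was 0.01 in experiment 1 and 0.55 in experiment 2. Trem1, an amplifier of innate inflammatory signalling, was raised by 2.12 and 1.04, Tnfrsf9 (4-1BB) by 2.05 and 1.24, Cd93 by 2.33 and 1.04, and the prostaglandin synthase gene Ptgs2 by 1.14 and 0.70. Efr3b fell to 3.82, 5.16, 4.65 and 5.18 RPM in Cebpb siRNA cells and 8.57, 9.31, 8.37 and 11.7 RPM in isoproterenol cells, against 26.1, 24.3, 24.3 and 22.8 RPM in unstimulated controls. Lpl, lipoprotein lipase, changed by -1.26 with Cebpb siRNA and by -0.76 with isoproterenol.

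The 7 genes for which isoproterenol went further included the cyclic nucleotide phosphodiesterase genes Pde4b and Pde3b, which degrade cyclic AMP. Pde4b had 10.9, 9.57, 12.7 and 11.2 RPM in Cebpb siRNA cells and 17.5, 14.3, 13.0 and 13.8 RPM in isoproterenol cells, against 9.06, 10.7, 7.83 and 7.90 RPM in unstimulated controls (direct -0.40 ± 0.12, adjusted p = 0.00847). Pde3b differed by -0.35 ± 0.14 (adjusted p = 0.0413). The others were the MAP kinase phosphatase Dusp5 (-0.49 ± 0.13), the thrombin receptor Thbd (-0.38 ± 0.15), Csf2rb2, a receptor subunit whose reads could be shared with its near copy Csf2rb (-0.40 ± 0.11), Ints10 (0.28 ± 0.11, lowered by both) and Il1b. Il1b, interleukin-1β, had 2.31, 1.80, 2.16 and 2.19 RPM in Cebpb siRNA cells and 3.33, 4.83, 3.12 and 3.74 RPM in isoproterenol cells, and it was listed at 0 in all 4 unstimulated controls. Its direct difference was -0.81 ± 0.18 (adjusted p = 0.000867).

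In 29 genes the treatments moved to opposite sides of the unstimulated controls. In 12 of them Cebpb siRNA raised the gene and isoproterenol lowered it, and in 17 the reverse held. Clec12a, an inhibitory C-type lectin of myeloid cells (chromosome 6, 129342691 to 129365303), had 77.6, 68.0, 100 and 136 RPM in Cebpb siRNA cells and 10.4, 11.2, 18.6 and 22.7 RPM in isoproterenol cells, against 23.3, 22.1, 30.5 and 29.0 RPM in unstimulated controls. Within each experiment the controls lay between the treatments (direct 2.63 ± 0.10, adjusted p = 1.03e-11). Angptl2, a secreted angiopoietin-like protein, had 64.4, 60.4, 46.1 and 38.6 RPM in Cebpb siRNA cells and 17.1, 16.6, 9.98 and 8.45 RPM in isoproterenol cells, against 19.2, 21.7, 14.3 and 13.1 RPM in unstimulated controls. Ptger4, the prostaglandin E2 receptor EP4, which itself raises cyclic AMP, changed by 0.66 with Cebpb siRNA and by -0.41 with isoproterenol. Lipa, lysosomal acid lipase, changed by 0.30 and -0.34. Rgs2, a regulator that dampens G-protein signalling, changed by 0.22 and -0.33. Mex3b, St3gal6, Tmem158 and Zfp618 followed the same course, with direct differences of 0.65 to 1.74.

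On the reverse side, Hilpda, a lipid droplet protein that inhibits triglyceride lipolysis (chromosome 6, 29272488 to 29275446), had 36.9, 40.7, 47.7 and 47.2 RPM in Cebpb siRNA cells and 102, 119, 167 and 188 RPM in isoproterenol cells, against 56.7, 56.9, 97.2 and 81.4 RPM in unstimulated controls. Its direct difference was -1.70 ± 0.09 (adjusted p = 1.50e-10). Slpi, a secreted inhibitor of neutrophil elastase and a known C/EBP target, had 32.5, 32.7, 21.4 and 23.8 RPM in Cebpb siRNA cells and 94.5, 99.2, 84.7 and 84.8 RPM in isoproterenol cells, against 64.6, 60.2, 57.9 and 61.1 RPM in unstimulated controls (-1.74 ± 0.08, adjusted p = 4.77e-11). Acod1, which makes itaconate, differed by -1.46 ± 0.12, the glycosyltransferase gene Gcnt1 by -1.25 ± 0.12, the MAX-interacting repressor Mxi1 by -1.17 ± 0.10, the shared cytokine receptor subunit Csf2rb by -1.12 ± 0.09 and the endoplasmic reticulum gene Creld2 by -1.03 ± 0.09. Kctd12, which codes for an auxiliary subunit of GABA-B receptors, differed by -0.94 ± 0.09. The interleukin-4 receptor gene Il4ra (-0.76 ± 0.09, picked after its value was seen) and the scavenger receptor gene Msr1 (-0.69 ± 0.06) were in this class too. S100a8, a calcium-binding protein of neutrophils and monocytes, was listed at 0 in 3 Cebpb siRNA libraries and at 1.05 RPM in the other, against 5.78, 4.67, 4.28 and 4.61 RPM in isoproterenol cells and 2.22 to 3.35 RPM in unstimulated controls. It is the single neutrophil marker of 9 that was tested. The number of genes moved to opposite sides ranged from 12 to 40 on leaving out single libraries, with 12 remaining without control experiment 1 replicate 1 and 40 without Cebpb siRNA experiment 2 replicate 2, and it was 16 to 19 without each of the other 3 controls, isoproterenol experiment 1 replicate 2 and both isoproterenol replicates of experiment 2.

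A further 24 genes passed the test with isoproterenol against unstimulated controls, 17 raised and 7 lowered, did not pass it with Cebpb siRNA, and differed between the treatments. Lyz2, lysozyme 2, the classical macrophage product and a C/EBP target (chromosome 10, 117277331 to 117282321), had 643, 607, 715 and 692 RPM in Cebpb siRNA cells and 969, 999, 1126 and 1165 RPM in isoproterenol cells, against 529, 519, 724 and 799 RPM in unstimulated controls. Its reads could be shared with its near copy Lyz1. Isoproterenol raised it 1.68-fold (adjusted p = 8.1e-08) and the direct difference was -0.68 ± 0.06 (adjusted p = 3.67e-08). The cytokine receptor gene Il7r was raised by 0.68, the lysosomal acetyltransferase gene Hgsnat by 0.60, the mitophagy receptor gene Bnip3 by 0.53 and the protease gene Ctsc, cathepsin C, by 0.53. Zswim6 was raised by 0.54. The lowered genes named by rank were Kitl, the ligand of KIT (-0.45), Bmt2 (-0.44), Ppfibp2 (-0.35), the plakophilin gene Pkp4 (-0.34), Zmiz2 (-0.27) and Ccnd1, cyclin D1 (-0.27). Ccnd1 had 1129, 1185, 1010 and 1061 RPM in Cebpb siRNA cells and 1000, 909, 849 and 884 RPM in isoproterenol cells, against 1232, 1118, 997 and 1040 RPM in unstimulated controls. Within each experiment the isoproterenol libraries were the lowest.

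Genes of the signalling route of isoproterenol themselves differed between the treatments. Of 21 tested genes of β-adrenergic and cyclic AMP signalling, 9 were higher and 8 were lower in the direct comparison. The shares over all genes tested were 30.4% higher and 29.3% lower. Prkar2a, a regulatory subunit of protein kinase A, had 24.8, 33.2, 25.5 and 24.8 RPM in Cebpb siRNA cells, against 140, 141, 129 and 124 RPM in isoproterenol cells (-2.31 ± 0.08, adjusted p = 4.66e-12). Prkacb, a catalytic subunit of the same kinase, was higher, at 101, 107, 102 and 106 RPM against 49.7, 55.3, 51.0 and 49.6 RPM in isoproterenol cells (1.01 ± 0.06, adjusted p = 1.86e-09). The phosphodiesterase gene Pde4a was lower (-1.10 ± 0.09) and the adenylyl cyclase gene Adcy7 was higher (0.76 ± 0.07). Of 22 tested cyclic AMP and CREB response genes, 9 were higher and 4 lower, against the same shares of all genes. Among the 22, 3 (Odc1, Crem, Fosl2) were in the set at similar levels. Creb1 itself (0.85 ± 0.06), the AP-1 gene Junb (1.05 ± 0.07) and Ier5 (0.78 ± 0.08) were higher after Cebpb siRNA, and Creb3l2 was lower (-1.11 ± 0.17). Isoproterenol raised 4 of the 22 against unstimulated controls and lowered 0, and Cebpb siRNA raised 13 and lowered 2. Over all 10682 genes isoproterenol raised 130 and Cebpb siRNA raised 3456. At an unadjusted p under 0.05, 9 of the 22 were higher and 0 lower after isoproterenol, against 5.65% and 5.48% of all genes.

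Other members of the C/EBP family also differed. Cebpd, an inducible relative of Cebpb, had 24.4, 22.1, 16.3 and 20.2 RPM in Cebpb siRNA cells and 15.7, 15.4, 14.2 and 15.6 RPM in isoproterenol cells, against 12.6, 11.7, 10.1 and 10.9 RPM in unstimulated controls. Both treatments raised it, Cebpb siRNA by 0.86 and isoproterenol by 0.43, and the direct difference was 0.44 ± 0.10 (adjusted p = 0.00149). Ddit3 (CHOP), the stress-induced member, was lower after Cebpb siRNA (-1.27 ± 0.11), as was Cebpg (-0.34 ± 0.07). Cebpz, which has a like symbol and is not counted here as a member of the family, was lower as well (-0.25 ± 0.08). Of 14 tested myeloid genes linked to C/EBPβ, 4 were higher, 7 lower and 3 did not pass the test. The shares over all genes tested were 30.4% higher and 29.3% lower. Against unstimulated controls, isoproterenol raised 10 of the 14 and lowered 0 by limma. At an unadjusted p under 0.05 the counts were 11 and 0, against 5.65% and 5.48% of all genes. Cebpb siRNA raised 7 of the 14 and lowered 3, against 3456 and 3271 of all 10682 genes. Il1rn, the interleukin-1 receptor antagonist, had the highest direct difference of the 14 (1.72 ± 0.07, adjusted p = 1.61e-11). It had 378, 365, 700 and 723 RPM in Cebpb siRNA cells against 107, 133, 202 and 207 RPM in isoproterenol cells. Fcgr1, the high-affinity IgG receptor, was lower (-1.70 ± 0.14).

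In the direct comparison the usual markers of macrophage polarization gave no single direction. Arg1, Il10, Vegfa, Chil3 and Mrc1 on the M2 side and Il6 and Nos2 on the M1 side were above the floor in fewer than 4 of the 8 libraries and were not tested. Of 11 tested M2 genes, 5 were higher and 4 lower, against 30.4% and 29.3% of all genes. Set against unstimulated controls, isoproterenol raised 4 of the 11 and lowered 1, and Cebpb siRNA raised 5 and lowered 5. The galactose lectin gene Mgl2 had 113, 114, 79.1 and 73.8 RPM in Cebpb siRNA cells against 53.9, 55.3, 31.3 and 32.6 RPM in isoproterenol cells (1.16 ± 0.07), Ptgs1 was 0.84 higher, and Ppargc1b, a coactivator of oxidative metabolism, was lower (-1.07 ± 0.12). Of 14 tested M1 genes, 7 were higher and 4 lower. Set against unstimulated controls, isoproterenol raised 5 of the 14 and lowered 0, and Cebpb siRNA raised 8 and lowered 3. Over all 10682 genes isoproterenol raised 130 and lowered 47, and Cebpb siRNA raised 3456 and lowered 3271. Ccl3, the chemokine MIP-1α, had 31.4, 39.9, 43.8 and 43.7 RPM in Cebpb siRNA cells, against 194, 223, 226 and 236 RPM in isoproterenol cells (-2.48 ± 0.08, adjusted p = 2.19e-12), and Ccl4 was lower (-0.95 ± 0.07). Cd40, a co-stimulatory receptor, was higher (1.5 ± 0.09), as was Irf5 (0.93 ± 0.08). Tnf had 48.7, 52.7, 51.6 and 53.9 RPM in Cebpb siRNA cells and 48.3, 50, 49.8 and 45.5 RPM in isoproterenol cells, a difference of 0.10 ± 0.07 with an interval of -0.05 to 0.24.

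Surface receptors and chemokine receptors also differed. Of 18 tested C-type lectins and scavenger receptors, 11 were higher after Cebpb siRNA and 5 lower, with a median of 0.52. Beside Clec12a, the activating lectin Clec5a (1.29 ± 0.08) and the family members Clec4a1 (1.02 ± 0.07) and Clec4a2 (1.46 ± 0.12) were higher, and the scavenger receptor Marco was lower (-1.94 ± 0.16). Against unstimulated controls, isoproterenol raised 9 of the 18 and lowered 2, and over all 10682 genes it raised 130 and lowered 47. Cx3cr1, the fractalkine receptor and a marker of resident macrophages, had 25.1, 28.8, 24.2 and 20.7 RPM in Cebpb siRNA cells, against 127, 125, 113 and 118 RPM in isoproterenol cells (-2.30 ± 0.08, adjusted p = 2.23e-12). Cxcr4 was higher (1.51 ± 0.11), as was Cxcl16 (1.37 ± 0.06). Among 18 tested macrophage identity genes, 9 were lower and 5 higher in the direct comparison, against 29.3% and 30.4% of all genes. Maf (-0.88 ± 0.08) and Irf8 (-0.74 ± 0.08), transcription factors of macrophages, were on the lower side. Against unstimulated controls, however, Cebpb siRNA raised 9 of the 18 and lowered 5. At an unadjusted p under 0.05, 10 of the 18 were higher and 0 lower after isoproterenol, against 5.65% and 5.48% of all genes.

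Among metabolic and stress lists, those for ATF4, chaperones and cholesterol synthesis lay mostly below isoproterenol cells. The respiratory chain and NRF2 lists divided. Over all genes tested 30.4% were higher and 29.3% lower. Of 32 tested genes of the ATF4 response, amino acid supply and tRNA charging, 24 were lower and 1 was higher (median -0.53). Shmt2, mitochondrial serine hydroxymethyltransferase, had 20.9, 21.4, 21.6 and 21.7 RPM in Cebpb siRNA cells, against 80.9, 85.5, 85.5 and 83.9 RPM in isoproterenol cells (-1.97 ± 0.07, adjusted p = 2.78e-12). Cth, which makes cysteine (-1.89 ± 0.08), Trib3 (-1.65 ± 0.08), the cationic amino acid transporter Slc7a1 (-1.44 ± 0.07) and the serine synthesis gene Psat1 (-1.29 ± 0.06) went with it. Of 22 heat shock and endoplasmic reticulum chaperone genes, 17 were lower and 3 higher. Hspa5 (BiP) had 1571, 1567, 1906 and 1572 RPM in Cebpb siRNA cells, against 2761, 2999, 3662 and 3369 RPM in isoproterenol cells (-0.95 ± 0.07), and Hsp90b1 was lower (-1.01). Of 22 cholesterol synthesis genes, 12 were lower and 2 higher, led by Hsd17b7, a sterol reductase (-2.34 ± 0.10). The fatty acid chaperone Fabp5 was lower (-1.42 ± 0.07), on a lipid handling list where 9 of 20 tested were lower and 5 higher (median -0.04). Of 35 nuclear respiratory chain genes 10 were higher and 7 lower. Of 19 antioxidant genes of the NRF2 response 5 were higher and 6 lower, with the ferritin heavy chain gene Fth1 at 0.95 ± 0.06. Of 12 tested genes of RNA interference, 6 were lower and 1 was higher. Ago2, the slicing Argonaute, showed -0.10 ± 0.07 with an interval of -0.24 to 0.05.

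An 8-base word, AACTTGTA, and its 7-base form AACTTGT were searched in the annotated 3′ UTRs of the tested genes on the coding strand, because an earlier analysis of these same libraries had shown them to go with lower levels after Cebpb siRNA. The word is therefore a description and not independent evidence. The longest annotated 3′ UTR was taken for each of 9887 tested genes (92.6%), from GENCODE vM21 on GRCm38. The median difference was -0.35 for the 437 genes with the 8-base word, -0.20 for 1046 genes with the 7-base word and not the 8-base one, -0.04 for 2299 genes with its 6-base core ACTTGT alone and 0.08 for 6105 genes with no core. Lower calls made up 55.1%, 46.6%, 34.2% and 24.1% of these classes in that order. The median change with isoproterenol against unstimulated controls was 0.01, -0.01, -0.01 and 0.00, and that with Cebpb siRNA was -0.38, -0.18, -0.03 and 0.08. Genes with the core have longer 3′ UTRs (median 2159 bases, against 773 without), and among genes with UTRs of 1000 to 3000 bases the medians were -0.37, -0.18, -0.03 and 0.12. Of the 15 genes named as lowest, 12 hold the core, 7 of them in the 7-base or 8-base form, whereas 3 of 14 with an annotated UTR among the highest hold it, all as the 6-base core. Over all 9887 genes 38.3% hold it.

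The windows of 30 bases around the word are shown for 5 of the lowest genes, with the word in capitals, 5′ to 3′ on the strand of the gene and in GRCm38 coordinates. The windows come from Cdca7 on the plus strand at chr2:72486113-72486142, Cse1l on the plus strand at chr2:166945885-166945914, Trip13 on the minus strand at chr13:73912454-73912483, Arap2 on the minus strand at chr5:62604052-62604081 and E2f2 on the plus strand at chr4:136195496-136195525.
Cdca7: aagagccccttAACTTGTttacacagaatc
Cse1l: ccaacctcttgAACTTGTcacaaactctta
Trip13: ttgtaatattaAACTTGTtttcagaattct
Arap2: tttggtttggaAACTTGTAaagttcaattg
E2f2: tagcagaattaAACTTGTAaataggcttgg
The Cebpb transcript holds the 7-base word once, before its 3′ UTR, on the plus strand at chr2:167689848-167689877, shown because Cebpb is the targeted gene.
Cebpb: gcaccctgcggAACTTGTtcaagcagctgc
Arap2, a signalling protein that acts on small GTPases, differed by -2.32 on the log2 scale, as did E2f2. The genes at a similar level were mostly without the word: of the 18 that met the rule for naming, 1 holds the core.

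**Figure D5:**
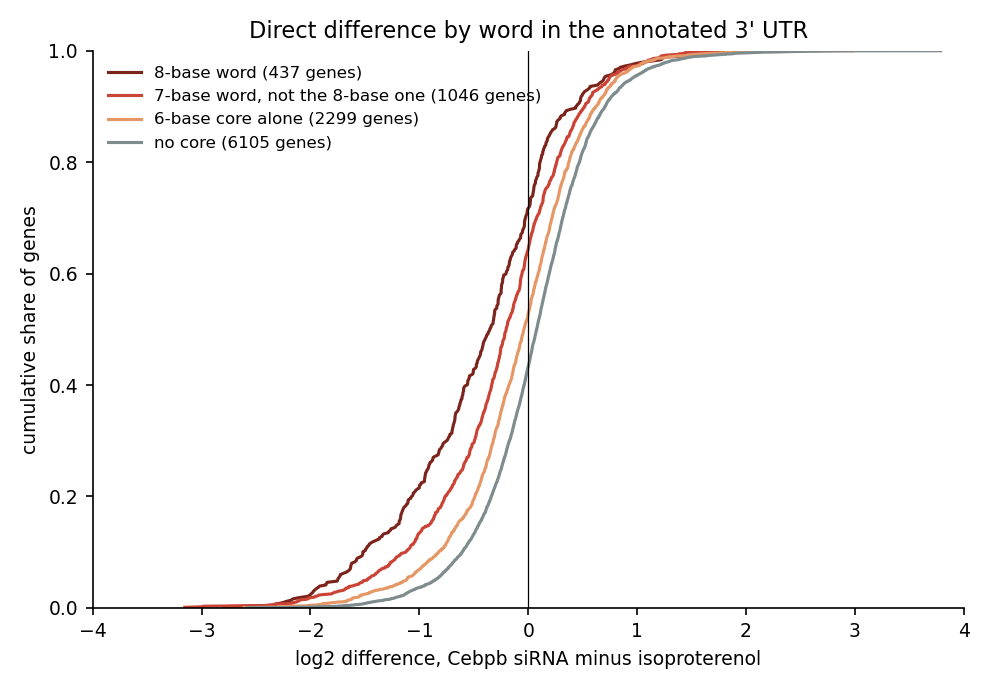
Cumulative share of genes (y axis) against the log2 difference, Cebpb siRNA minus isoproterenol (x axis), for 437 genes with the 8-base word in the annotated 3′ UTR, 1046 with the 7-base word alone, 2299 with the 6-base core alone and 6105 without it. The curves lie in that order from left to right, with medians of -0.35, -0.20, -0.04 and 0.08.

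The known binding words of CREB and C/EBP were counted in promoters, from 250 bases before to 50 after the start, in the RefSeq table on GRCm38.p6, on both strands. Of 8173 tested genes matched there, 3.99% hold the full cyclic AMP response element TGACGTCA, 14.3% hold its shorter form TGACGT, which the full element contains, and 0.392% hold the C/EBP word TTGCGCAA. Of the 103 matched genes that isoproterenol raised, 9 hold TGACGT, none holds the full element and 1, Ptgs2, holds TTGCGCAA. None of the 31 matched genes of the raised set at similar levels holds any of the 3. Among the named genes, Myo6 and Oasl2 of those higher after Cebpb siRNA, Angptl2 and Mex3b of those in opposite directions, and Pkp4 hold TGACGT. Clec12a, named both among the highest and among those in opposite directions, is the 1 matched gene named by rank that holds TTGCGCAA.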

How the data were processed

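RNA of RAW 264.7 cells was sequenced with a 3′ end kit (QuantSeq FWD), per the labels' protocols. Per the submitters' processing notes, the aligner was STAR 2.5.3a and the build GRCm38; no source states the counter, its strand setting or the annotation. The deposited values are log2 RPM over all sequenced reads, and no value between 0 and 1 RPM is listed; 1 RPM is 9.4 to 25.2 reads by library. A listed 0 may also stand for a transcript that was not counted. Because the unit is log2, limma 3.58.1 (R 4.3.3) was used and no count test. Symbols that occur more than once (106) were left out. Values were scaled by trimmed mean over the 16 libraries (30% of log ratios and 5% of levels trimmed) and raised to a common floor of 1.08 RPM, so changes of genes near the floor are understated. Genes above the floor in at least 4 of the 8 libraries were tested with group and experiment as terms, a trended and robust variance, and Benjamini-Hochberg adjustment at 0.05. Each treatment against unstimulated controls was fitted on all 16 libraries. The script was tested on simulated data. RPM values printed are scaled.

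Genes were named by rank of absolute log2 difference among those with a mean of at least 10 RPM and the same sign in both experiments (first 15 higher and 15 lower), by like ranks in the similar (10 raised, 10 lowered), opposite (8 of each) and isoproterenol-only classes (6 of each), and up to 5 members of each list. The members and lists were chosen with earlier results of these data known. Alternatives were other scaling, floors, filters, fits and margins, each experiment alone, a replicate block and leaving out each library. Gene positions are from GENCODE vM21 and promoters from RefSeq. Replicate numbers were not used as pairs in the reported fits. Some genes that met the rule for naming are not reported here.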

Additional observations from a re-analysis of the deposited data

Results flagged for a closer look

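Among 483 groups of 4 libraries for the genes and measures reported, 15 had a library set apart by a gap that chance gives in about 1 in 20 groups. In the Cebpb siRNA group, experiment 2 replicate 2, the shallowest library, was high for Bmt2 (161 RPM, others 104 to 113), Cxcl2 (266, others 162 to 178) and Prmt2 (20.2, others 14.0 to 14.7) and low for Ier5 (182, others 247 to 256). Experiment 2 replicate 1 was high for Cebpz (167, others 132 to 137) and Hspa5 (1906, others 1567 to 1572) and low for Edil3 (22.6, others 24.7 to 24.9) and Jup (21.3, others 30.2 to 31.2). Prkar2a was high in experiment 1 replicate 2 (33.2, others 24.8 to 25.5).

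In the isoproterenol group, experiment 2 replicate 1 was high for Fam46c (6.10 RPM, others 3.18 to 3.54) and Timeless (27.2, others 22.8 to 23.4), and experiment 1 replicate 2 for Rel (30.2, others 26.9 to 27.4). The share of multimapping reads was 21.87% in experiment 1 replicate 1, against 21.32% to 21.39% in the other 3. In unstimulated controls, Clec4a1 was high in experiment 2 replicate 2 (38.4, others 32.4 to 32.6) and Myo6 in experiment 2 replicate 1 (4.40, others 3.21 to 3.35).

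Mmp9, a matrix metalloproteinase gene on the osteoclast list, was the 1 gene of 10682 whose direct difference itself differed between experiments, by 0.95 on the log2 scale (limma interaction term, adjusted p = 0.0275). It had 182, 187, 187 and 203 RPM in Cebpb siRNA cells, against 197, 189, 103 and 109 RPM in isoproterenol cells. The direct difference was -0.07 in experiment 1 and 0.88 in experiment 2.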

How the results depend on the processing

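Cebpb stayed lower after Cebpb siRNA under every alternative run (-2.27 to -1.66), and -2.16 to -1.71 without 1 library. The count of direct calls was 3833 in experiment 2 alone and 5734 to 6460 without 1 library. That for Cebpb siRNA against controls was 6313 to 6713 without 1 library. The count for isoproterenol was 44 with no experiment term, 24 in experiment 2 alone, 108 with no trend or robust variance and 98 to 250 without 1 library. It was 98 without control experiment 1 replicate 1, and 117, 111 and 114 without isoproterenol experiment 1 replicate 2, experiment 2 replicate 1 and experiment 2 replicate 2. Genes at a similar level numbered 9 with no experiment term, 4 in experiment 2 alone, 25 with no trend or robust variance, 27 at a margin of 0.32, 92 at a margin of 1 and 26 to 68 without 1 library; as deposited, 38 of the 50 remained. Genes in opposite directions numbered 2 with no experiment term, 18 in experiment 1 alone, 2 in experiment 2 alone, 14 with no trend or robust variance and 12 to 40 without 1 library. Mmp9 was reversed in experiment 1 alone (-0.07). Same-numbered replicates deviated together in experiment 2 (correlation 0.423) but not in experiment 1 (-0.0292), over 6851 genes; with a replicate block the counts were 6633 direct, 6662 for Cebpb siRNA, 151 for isoproterenol, 42 similar and 28 opposite. The causes were not tested. Genes listed at 0 in most libraries were not compared, whatever their level.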
